A study of Mus musculus with 18 samples.

Results

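The long-tail and the short-tail poly(A) RNA of the same brains were compared gene by gene in 6 mice, with each gene judged against genes of similar abundance. Cortex and striatum were dissected together from mice aged 6 weeks, 2 of each of 3 genotypes: WT, CPEB4 GT/+, which the labels write with a single GT allele of Cpeb4, and CPEB4 KO. Poly(A) RNA was bound to poly(U) agarose and released at 25% formamide (WASH, enriched for short tails) and then at 90% formamide (ELUTED, enriched for long tails), beside total RNA that was not fractionated (INPUT). All animals entered as WASH and ELUTED pairs, 12 of the 18 arrays of the series, and the 6 INPUT arrays gave the level of each gene. The sex of the animals and the construction of the alleles were not used here.

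Most mRNAs end in a tail of adenosines that binds poly(A)-binding protein, and enzymes that shorten or extend the tail bear on how long an mRNA lasts and how well it is translated. Neurons use tail changes in the cytoplasm, at synapses among other places, and the CPEB proteins bind elements in target mRNAs and direct such changes. Poly(U) chromatography sorts RNA by how firmly its adenosine stretch binds: long stretches need more formamide to come off.

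The INPUT arrays carried the genes that define the dissected tissue. Slc17a7 of cortical excitatory neurons lay at 10.58 to 10.97 on the log2 scale and the striatal gene Ppp1r1b at 9.69 to 9.96. Other markers were dimmer: Tbr1 (8.66 to 9.20) and Neurod6 (6.039 to 6.495) of cortex, and Drd1 (8.46 to 8.80) and Drd2 (6.05 to 7.01) of striatum. The INPUT levels of 3 genes of neighbouring structures varied between animals: Pmch of the lateral hypothalamus (5.16 to 9.23), Ttr of choroid plexus (7.84 to 11.82) and Gh of the pituitary (5.83 to 7.59). The hypothalamic genes Hcrt (6.034 to 6.915) and Avp (6.283 to 6.559) varied less. Prl and the cerebellar Gabra6 lay below the filter on low genes. The deposited values carry no measure of the RNA in each fraction, so every ratio is relative to the other genes on the array and the amount of RNA per fraction was not measured. The values spread less across probe sets on ELUTED arrays (standard deviation 1.78 to 1.90) than on WASH arrays (1.96 to 2.01). The difference between the 3′ and 5′ control probe sets of Actb, a sign of RNA quality, also set the fractions apart: it lay between -0.47 and -0.31 in ELUTED and between -0.21 and -0.06 in WASH, while that of Gapdh overlapped (-0.05 to 0.06 and -0.13 to 0.02). Its part in the ratios below was not tested.

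The ratio, ELUTED minus WASH on the log2 scale within an animal, depended on how abundant a gene was. Of 12822 genes, 3196 (24.9%) were called higher in ELUTED and 6217 (48.5%) lower (limma, Benjamini-Hochberg adjusted p under 0.05), or 73.4% in all. That split depended on the scaling: with each array centred on its median, 6202 were higher and 3346 lower, and once the hybridisation controls set the scale 175 were higher and 8941 lower, as the median ratio moved from -0.18 to 0.17 and to -0.67. With genes divided by INPUT level into 5 equal groups, the median ratio was 0.17 in the lowest group, -0.01 in the next, then -0.30, -0.42 and, in the highest, -0.29. In every animal the lowest group had a median above 0 (0.04 to 0.31) and the fourth a median below 0 (-0.61 to -0.25). A smooth trend of the ratio on the INPUT level was therefore subtracted in each animal, which left the level-adjusted ratio: 0 means the ratio that genes of that abundance had. By this measure 4589 genes (35.8%) were called higher and 4358 (34%) lower, 69.8% in all, and 66.9% had all 6 animals on 1 side of 0. The median over all genes was 0.02. Below, genes and list members called higher or lower are so by the level-adjusted ratio unless the plain ratio is named. Higher thus means higher than genes of that abundance, and not always higher in ELUTED than in WASH.

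**Figure D1:**
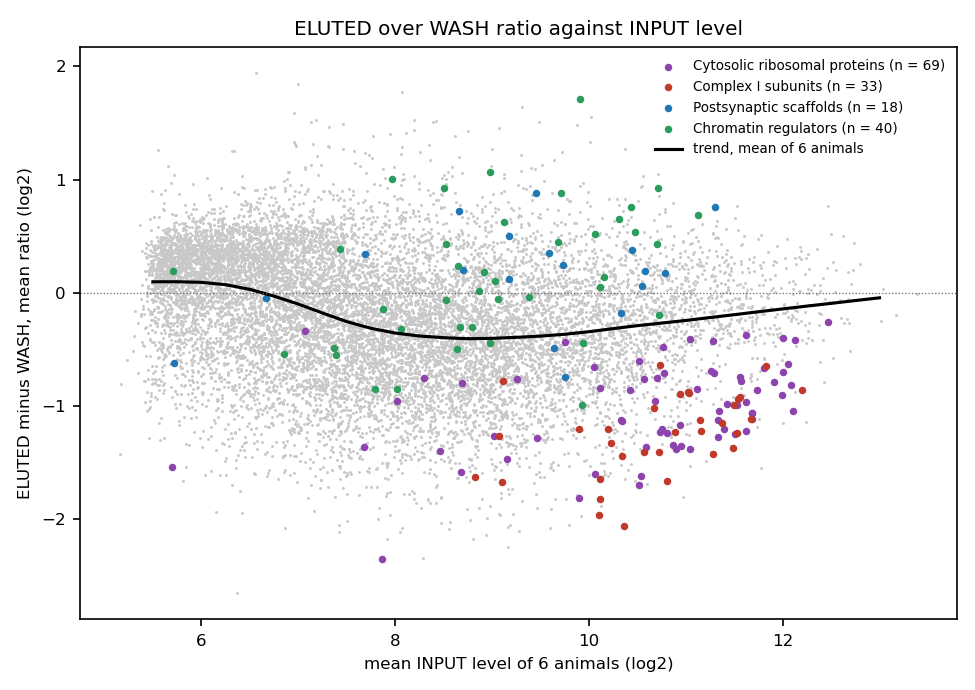
Each grey point is 1 of 12822 genes, with its mean INPUT level (log2) on the horizontal axis and its mean ELUTED minus WASH ratio (log2, 6 animals) on the vertical axis; the black line is the trend, and 4 gene lists are coloured. The trend falls from above 0 at low levels to its lowest near a level of 8.75, and ribosomal and complex I genes lie below it over a wide range of levels while most scaffold and chromatin genes lie above it.

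The adjustment changed the standing of many genes. Of the genes called lower by the plain ratio, 1934 were not called once level was taken into account and 48 were called higher. Of the genes not called by the plain ratio, 1623 were called higher and 123 lower. No gene went from higher to lower, and 278 higher calls were lost. Among the 48, Ddit3, a transcription factor of the stress response, measured 8.91, 8.93 and 9.23 in WASH (lowest, median and highest of 6 animals) and 8.64, 8.78 and 8.92 in ELUTED, and Myo1c, a motor protein, 8.34, 8.54 and 8.66 against 8.25, 8.32 and 8.40. Both were lower in ELUTED than in WASH, but by less than genes of their level, with level-adjusted ratios of 0.20 and 0.21 (SE 0.07 and 0.06, adjusted p = 0.0301 and 0.0159). Both lay near the threshold: the adjusted p of Ddit3 was 0.166 without WT 1, 0.0592 without WT 2, 0.0551 without CPEB4 GT/+ 2, 0.126 without CPEB4 KO 1 and 0.0519 without CPEB4 KO 2. That of Myo1c was 0.0669 without WT 1, 0.0834 without WT 2 and 0.0833 without CPEB4 KO 2.

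The genes furthest from their level neighbours lay in both directions. On the higher side 271 genes were called with a level-adjusted ratio of at least 1, and on the lower side 533 with at most -1. The dimmer fraction of some was at background, taken as the highest mean of the nonspecific controls (5.61): of the lower genes, 19 had all ELUTED arrays and 50 the median below it, and of the higher genes 4 had all WASH arrays and 5 the median. For such genes the size is a bound, the mean of the brighter fraction against the higher of background and the gene's own value on each array of the dimmer. Zmynd8, a reader of histone marks, measured 8.82, 9.07 and 9.46 in WASH and 10.60, 10.82 and 11.08 in ELUTED. The fractions did not overlap, which held for 7011 of all 12822 genes, for 266 of the 271 and for 526 of the 533. Its level-adjusted ratio was 2.06 (SE 0.09, adjusted p = 8.97e-06), and its plain ratio stood above those of the 500 genes nearest to it in INPUT level. The others of the 10 highest by computed ratio were Lrtm1 (2.14), Rgs9 (2.03), 4931430N09Rik, 6330415B21Rik, the ubiquitin ligase Herc4 (1.91), Krt20, Ncbp3, the nuclear noncoding RNA Kcnq1ot1 (1.90 each) and Fnbp1 (1.89). The clones 4931430N09Rik and 6330415B21Rik were below background on every WASH array, and ELUTED was at least 2.49-fold and at least 2.78-fold higher. Rgs9, which quenches G protein signalling in striatal neurons, rose from 7.85, 8.61 and 8.70 in WASH to 9.89, 10.15 and 10.41 in ELUTED.

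Among the 10 lowest by computed ratio was Rnpc3, a protein of the minor spliceosome. It measured 6.64, 7.29 and 7.68 in WASH and 4.47, 4.58 and 4.74 in ELUTED, below background in all animals. It was thus at least 3.08-fold lower in ELUTED (adjusted p of the level-adjusted ratio 1.27e-05, or 0.376 with a variance trend in limma), and its place among the 10 is not settled. Prdx4, a peroxidase of the endoplasmic reticulum, measured 7.53, 7.90 and 8.20 in WASH and 5.14, 5.90 and 6.42 in ELUTED (-2.02, SE 0.18), with 2 ELUTED arrays below background. The rest of the 10 lowest were Rpl22l1, the chromatin remodeller Smarca1 (both -2.02), Fpgt (-1.99), the mitochondrial DNA-binding protein Ssbp1 (-1.96), C1d (-1.88), Uqcrb of respiratory complex III (-1.85), the stress peptide Crh (-1.83) and Iftap (-1.82). ELUTED was below background on 5 of 6 arrays for Smarca1 (at least 2.82-fold lower), on 4 for Fpgt (at least 3.26-fold lower), on 3 for Rpl22l1 and on 1 each for C1d and Iftap, so the order of these genes is not settled either.

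Several of these values belong to a probe set and not to every probe set of the gene. Each gene was read from its brightest probe set, and for genes of at least 1 in size, 79.7% of 543 further probe sets above the filter lay on the same side of 0 (71.8% of 5269 over all genes with all animals on 1 side). The 2 further probe sets of Prdx4 gave -1.83 and -1.58 and that of Ssbp1 gave -1.23. For Zmynd8 they gave 0.18 and 0.83, and for Rgs9 0.61 and 0.73. Herc4 (-1.25 and 0.40), Ncbp3 (-0.44) and C1d (0.22) had further probe sets on the other side.

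The 2 directions were not built alike. For the 533 lower genes the median was 0.59 above INPUT in WASH and 0.87 below it in ELUTED (the median of all genes was 0.11 above and 0.04 below). For the 271 higher genes it was 0.48 below INPUT in WASH and 0.38 above it in ELUTED. The spread between animals of the lower genes lay mostly in ELUTED, where the median standard deviation was 0.39 on the log2 scale, against 0.17 in WASH and 0.16 in INPUT. Over all genes it was also largest in ELUTED, at 0.16 against 0.11 in WASH and 0.12 in INPUT. Both sets of genes were chosen by the ratios of these same arrays. Higher genes spread by 0.20 in ELUTED and 0.16 in WASH.

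**Figure D2:**
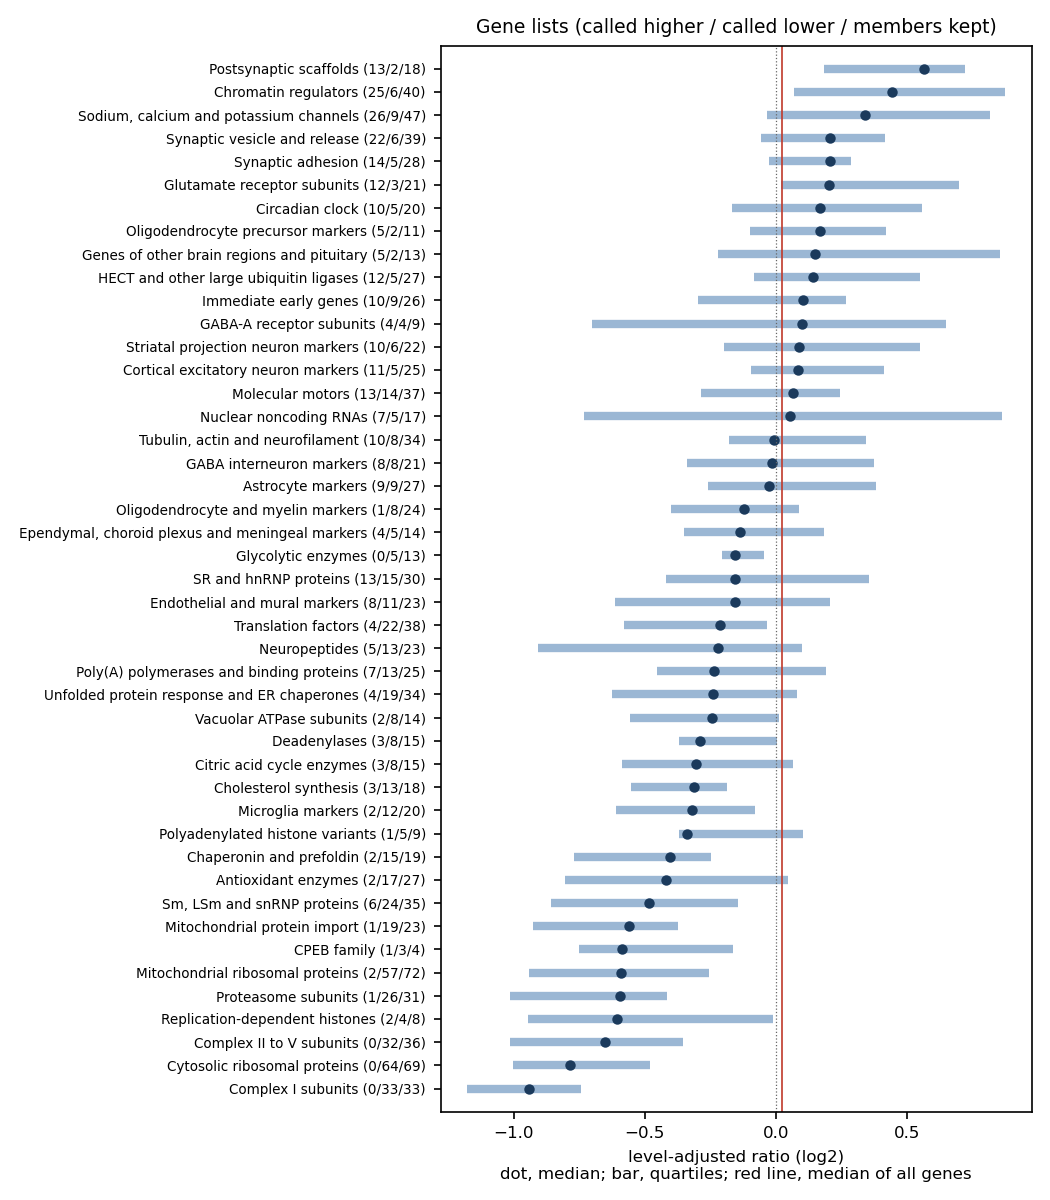
Each row is 1 of 45 gene lists; the dot is the median level-adjusted ratio (log2) of its members, the bar their quartiles and the red line the median of all genes (0.02). Complex I lies lowest at -0.94, followed by cytosolic ribosomal proteins, complexes II to V, replication-dependent histones and the proteasome, and postsynaptic scaffolds highest at 0.56.

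Genes of the respiratory chain, which turns electron transfer into ATP in mitochondria, were lower in ELUTED, and complex I had the lowest median of the 45 lists. All 33 complex I subunits were called lower, with a median of -0.94, and 32 of 36 subunits of complexes II to V, with a median of -0.65, where no member was called higher. Ndufc2, an accessory subunit of complex I, measured 10.33, 10.45 and 10.67 in WASH and 7.44, 8.42 and 9.34 in ELUTED. The WASH values were close together and the ELUTED values all lay below them, spread over almost 2 log2 units; the level-adjusted ratio was -1.75 (SE 0.15, adjusted p = 4.53e-05). Uqcrb measured 9.19, 9.41 and 9.68 in WASH and 5.68, 7.24 and 8.33 in ELUTED.

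Members differed in size within the chain. The 27 accessory subunits of complex I had a median of -0.99 and its 6 core subunits one of -0.74. The members with the highest INPUT levels, Ndufa5 and Ndufv1 of complex I, lay at -0.74 and -0.49, and Cox6a1 and Cox5b of cytochrome oxidase at -0.68 and -0.30, all called. Without CPEB4 KO 2, Cox5b was at -0.25 and missed the threshold. Its probe sets above the filter were at -0.30, -0.33 and -0.47. Over the mean of all its probe sets, which took in one below the filter at 0.44, Cox5b was at 0.14. The 4 members of complexes II to V that were not called included Sdha, the catalytic subunit of complex II, while both other subunits of complex II measured were called lower. The probe sets of Sdha above the filter were at 0.045 and 0.058. Its value of 0.48 over the mean of all its probe sets (adjusted p = 0.000171) took in others below the filter, at 0.14 and 0.54. Uqcrq of complex III was at -1.38, but its 2 further probe sets were at 0.33 and 0.02, so that reading depends on the probe set.

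Other mitochondrial lists had smaller medians. Of 72 mitochondrial ribosomal proteins 57 were called lower and 2 higher (median -0.59), with Mrps33 at -1.53 and Mrpl57 at -1.45. Of 23 import proteins, which carry precursors across the mitochondrial membranes, 19 were called lower and 1 higher (median -0.56). The chaperones Timm8b (-1.38) and Timm10 (-1.29) of the space between the membranes led, while the abundant receptor Tomm20 (-0.01, adjusted p = 0.876) and Tomm6 (0.18, adjusted p = 0.07) were not called. Both depended on the reading. Over the mean of its probe sets Tomm20 was at -0.44 (adjusted p = 0.000381), its further probe sets being at -1.18, -0.54 and -0.06. Tomm6 was at 0.25 (adjusted p = 0.00765) under that setting, although both its probe sets were at 0.18 with the main trend. Citric acid cycle enzymes were mixed, with 8 of 15 lower and 3 higher (median -0.31, or -0.08 over the mean of all probe sets): Suclg1 was at -0.94 and Mdh2 at 0.05 (adjusted p = 0.477). Of 13 glycolytic enzymes, 5 (38.5%, near the 34% of all genes) were called lower and none higher (median -0.16, or -0.06 over the mean of all probe sets). Tpi1 (-0.58) and Ldhb (-0.48) were among the 5. Gapdh lay at -0.21 (adjusted p = 0.0203), which became 0.0911 without WT 1, 0.0913 without WT 2 and 0.101 without CPEB4 KO 2. Gapdh had 1 probe set named for it alone, and it was at -0.06 once other genes were averaged over theirs, which changed the trend. It was at -0.09 with a wider trend span and -0.08 with binned medians (adjusted p of these 3 values = 0.365, 0.278 and 0.325). Aldoa lay at -0.05 (adjusted p = 0.526).

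Cytosolic ribosomal proteins, which build the ribosome and are made from abundant short mRNAs, were lower almost without exception. Of 69 members, 64 were called lower and none higher, with a median of -0.79. In the large subunit 39 of 43 were lower (median -0.79) and in the small subunit 25 of 26 (median -0.81). Rpl14 measured 6.90, 7.14 and 7.49 in WASH and 5.22, 5.64 and 5.83 in ELUTED, without overlap (-1.64, SE 0.12, adjusted p = 3.07e-05). Of its 6 ELUTED values 3 were below background. The INPUT level of this probe set, 5.70, also lay near background (5.61), so its level neighbours were dim genes. Its plain ratio was -1.54. Rpl22l1, a paralogue of a large-subunit protein, went from 7.98, 8.22 and 8.40 to 4.97, 5.83 and 6.67. Rpl4, with a level of 12.13 in INPUT, was at -0.29 (adjusted p = 0.00868, but 0.0665 without WT 1 and 0.0513 without CPEB4 KO 2), and Rps2 at -0.16 (adjusted p = 0.0504). Ribosomal protein genes have many near-identical pseudogenes, and array probes may not tell them apart.

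Many ribosomal protein mRNAs begin with a run of pyrimidines that serves translational control, and the sequences at the transcription starts are shown to see whether such a run went with the ratio inside the family. These are the 4 lowest members that hold a run, each with 15 bases before and 15 from the annotated RefSeq start of GRCm38.p6, 5′ to 3′ on the gene's strand, with the run in capitals. They lie at chr3:28805493-28805522 (plus strand), chr9:120571502-120571531 (plus), chr2:32961697-32961726 (plus) and chrX:37085208-37085237 (minus).
Rpl22l1: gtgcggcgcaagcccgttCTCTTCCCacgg
Rpl14: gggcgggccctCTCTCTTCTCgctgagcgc
Rpl12: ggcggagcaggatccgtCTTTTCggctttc
Rpl39: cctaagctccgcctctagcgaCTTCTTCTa

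A run was counted when a C followed by 5 pyrimidines, on the gene's strand only, lay wholly between 5 bases before and 15 bases from the start. Pyrimidines could go on outside that stretch. It was found in 25 of 55 ribosomal protein genes with a RefSeq start (45.5%), in 5 of 29 translation factors (17.2%) and in 13.4% of all 10307 kept genes with one. Inside the family the median was -0.79 with it and -0.80 without it, and 22 of 25 and all 30 others were called lower. The count rests on the annotated start, so a gene whose true start lies elsewhere may hold a run that was missed. The comparison therefore cannot decide whether the run goes with the ratio. Outside it, 1352 genes with a run had a median of 0.06 and those without 0.01, and 29.8% and 34.6% were called lower.

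Translation factors showed a smaller difference than the ribosome, with 22 of 38 called lower and 4 higher (median -0.22). Initiation factors (19 of 29 lower, 3 higher, median -0.29) held most of the lower calls, led by Eif1ax (-1.06), which helps the small subunit scan for the start codon. Eef1e1, a scaffold of the tRNA synthetase complex, was at -1.36. The abundant Eef1a1, which delivers tRNA to the ribosome, measured 12.52, 12.60 and 12.67 in WASH and 12.19, 12.41 and 12.59 in ELUTED (-0.14, adjusted p = 0.0868).

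The proteasome divided by particle. All 14 subunits of the core, the barrel that cuts proteins, were called lower (median -1.01). In the regulatory particle, which unfolds substrates, 12 of 17 were lower and 1, Psmd11 (0.43), was higher (median -0.44). Psmb7, a catalytic core subunit, measured 9.80, 9.90 and 10.09 in WASH and 6.08, 8.09 and 8.91 in ELUTED (-1.69, SE 0.24, adjusted p = 0.000368). Its WASH values spanned less than 0.3 log2 units while the ELUTED value of CPEB4 GT/+ 2 lay far below the rest. Sem1 of the regulatory particle was at -1.70. Of 27 large ubiquitin ligases, which mark proteins for this machine, 12 were higher (44.4%) and 5 lower (18.5%), with a median of 0.14. Over all genes these shares were 35.8% and 34%. The plain ratio called 8 of the ligases higher and 11 lower. Herc4 was highest at 1.91, Hectd2 lowest at -1.47 with 1 ELUTED array below background, and the most abundant, Nedd4, was at 0.14 (adjusted p = 0.123).

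Other assemblies and enzyme groups leaned the same way. Of 19 chaperonin and prefoldin subunits, which fold actin and tubulin among others, 15 were lower and 2 higher (median -0.40), with the tubulin cofactor Tbca at -1.71 and Pfdn1 at -1.42. Of 14 vacuolar ATPase subunits 8 were lower and 2 higher (median -0.24), Atp6v1f at -0.69 among them. Of 27 antioxidant enzymes 17 were lower and 2 higher (median -0.42), with Glrx3 at -1.16 and Prdx2 at -0.73. Of 34 genes of the unfolded protein response 19 were lower and 4 higher (median -0.24): Derl2 (-1.19) and Sec61b (-1.07) of the membrane led, and the abundant chaperones Canx (-0.14, adjusted p = 0.0924) and Hsp90b1 (-0.02, adjusted p = 0.788) were not called. Of 18 genes of cholesterol synthesis 13 were lower and 3 higher (median -0.31), with Msmo1 at -1.05 and Sqle at -0.97; a further probe set of Msmo1 was at 0.53.

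Splicing genes split by family. Of 14 small Sm and LSm proteins, which form the ring on spliceosomal RNA, 13 were lower and 1, Snrpd3 (0.50), was higher (median -0.77). Further probe sets of Snrpd3 were at 0.245 and -0.053. Among SR proteins, which bind exons, 7 of 8 were lower and none higher (median -0.68), with Srsf6 at -1.05. Among hnRNP proteins, which often act against them, 10 of 18 were higher and 8 lower, between -0.56 (Hnrnpdl) and 0.53 (Hnrnpr), so that every member was called and the median of 0.21 describes neither set. Over the mean of its probe sets Hnrnpr was at -0.07 (adjusted p = 0.301). The plain ratio called 4 of the 30 SR and hnRNP proteins higher and 17 lower. Tra2a, a relative of the SR proteins counted apart from both, measured 7.72, 8.25 and 8.73 in WASH and 9.47, 9.56 and 10.11 in ELUTED (1.83, SE 0.08, adjusted p = 8.97e-06). Sf3b6 (-1.46) and Sf3b1 (-0.59) of the U2 particle were lower and Snrnp70 of the U1 particle was higher (0.49).

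**Figure D3:**
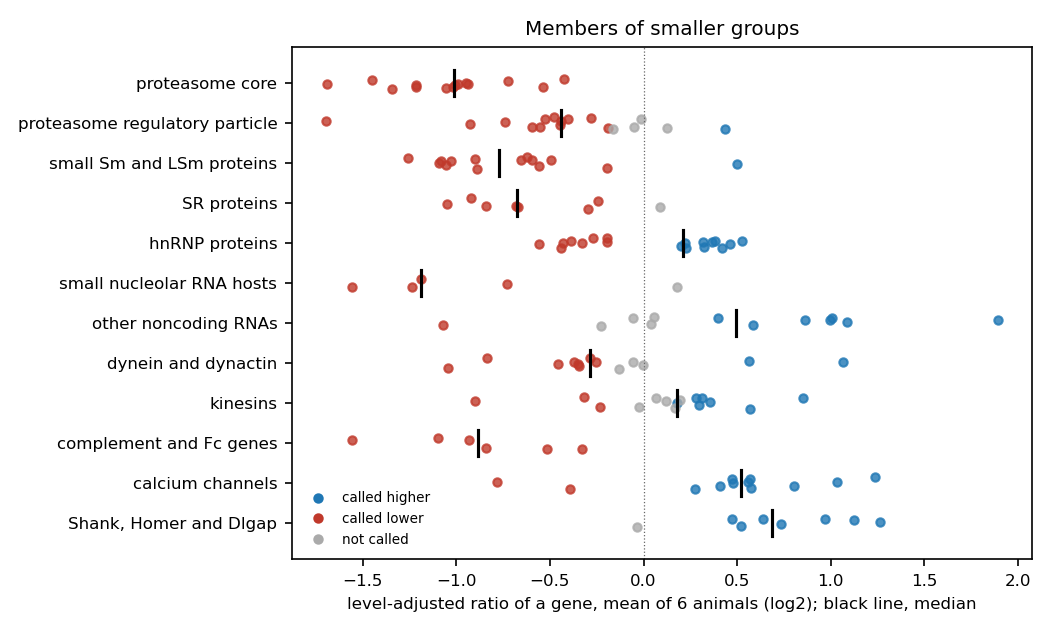
Each point is 1 gene and its level-adjusted ratio (log2, mean of 6 animals); rows are 12 smaller groups, colours show the call and the black line the median. All 14 proteasome core genes lie below 0, hnRNP genes fall into both directions, and 10 of 12 calcium channel genes lie above 0 as called genes.

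Postsynaptic scaffolds, which hold receptors at excitatory synapses, were highest of all lists. Of 18 members 13 were called higher and 2 lower, with a median of 0.56. By the plain ratio 9 were higher and 3 lower. Shank1 measured 8.43, 8.77 and 9.19 in WASH and 9.08, 9.54 and 10.50 in ELUTED. The ranges overlapped, but each animal was higher in ELUTED, and the level-adjusted ratio was 1.26 (SE 0.14, adjusted p = 0.000126). In the Shank, Homer and Dlgap families 7 of 8 were higher and none lower (median 0.69), with Homer2 at 1.13 and the abundant Dlgap1 at 0.97.

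Receptors and adhesion proteins of the synapse followed with smaller medians. Of 21 glutamate receptor subunits 12 were higher and 3 lower (median 0.20), and by the plain ratio 8 were higher and 6 lower. Grin2b of the NMDA receptor measured 9.64, 9.86 and 10.04 in WASH and 10.72, 10.88 and 11.08 in ELUTED (1.32, SE 0.08, adjusted p = 1.82e-05), and its 2 further probe sets gave 1.59 and 0.95. The kainate receptor gene Grik3 was at 1.12, with a further probe set at -0.29. Of 4 AMPA receptor genes 3 were higher and none lower, among them the abundant Gria1 (0.39). GABA-A receptor subunits were evenly split, with 4 of 9 higher and 4 lower: Gabrg3 was at 1.44, and Gabrg1, below background on every ELUTED array, was at least 1.46-fold lower there. The list's median moved from 0.10 to 0.61 once the lowest 50% of genes were removed.

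Of 28 synaptic adhesion genes 14 were higher and 5 lower (median 0.20), whereas the plain ratio called 4 higher and 11 lower. Nlgn1, a neuroligin of excitatory synapses, measured 5.72, 6.14 and 6.22 in WASH and 7.29, 7.41 and 7.82 in ELUTED, with no overlap (1.70, SE 0.09, adjusted p = 1.27e-05). The Lrrtm and Slitrk families leaned the other way inside this list, with 4 of 8 lower and 2 higher (median -0.25), although Lrrtm3 was at 0.97. Of 39 genes of the synaptic vesicle and its release 22 were higher and 6 lower (median 0.20). The plain ratio called 11 of them higher and 14 lower. All 3 synapsins, which tether vesicles, were higher, Syn3 at 1.10; the vesicular glutamate transporter Slc17a6 was lowest at -1.07 and the abundant Snap25 was at 0.31.

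Ion channels and chromatin regulators were the other lists with a clear share of higher calls. Of 47 sodium, calcium and potassium channel genes 26 were higher and 9 lower (median 0.34), whereas the plain ratio called 18 higher and 19 lower. All 12 calcium channel genes were called by the level-adjusted ratio, 10 of them higher (median 0.52). Kcnj6, an inward rectifier, measured 7.52, 7.65 and 7.91 in WASH and 8.60, 8.76 and 8.99 in ELUTED (1.52, SE 0.12, adjusted p = 3.5e-05); its 3 further probe sets gave 1.14 to 1.60. Kcnh7 was at 1.25 and the abundant Kcnma1 at 0.76.

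Of 40 chromatin regulators 25 were higher and 6 lower (median 0.44), and by the plain ratio 18 were higher and 12 lower. Tet2, which oxidises methylated cytosine, measured 8.30, 8.63 and 8.82 in WASH and 9.52, 9.66 and 9.92 in ELUTED (1.47, SE 0.09, adjusted p = 1.76e-05). Tet3 (1.33) and the methyltransferase Dnmt3a (1.06) were higher as well, while Dnmt1, which copies methylation after replication, was lower (-0.49). Further probe sets were at 0.27 for Tet2 and at 0.24 to 1.02 for Dnmt3a. Of 8 histone methyltransferases 6 were higher and none lower (median 0.63), and of the histone deacetylases on the list Hdac2 was at -0.64, or -0.04 over the mean of its probe sets (adjusted p = 0.532). Hdac1 was at -0.27 (adjusted p = 0.0436, but 0.204 without WT 1, 0.0857 without CPEB4 GT/+ 2 and 0.203 without CPEB4 KO 2). The acetyltransferase Crebbp was at 0.92.

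**Figure D4:**
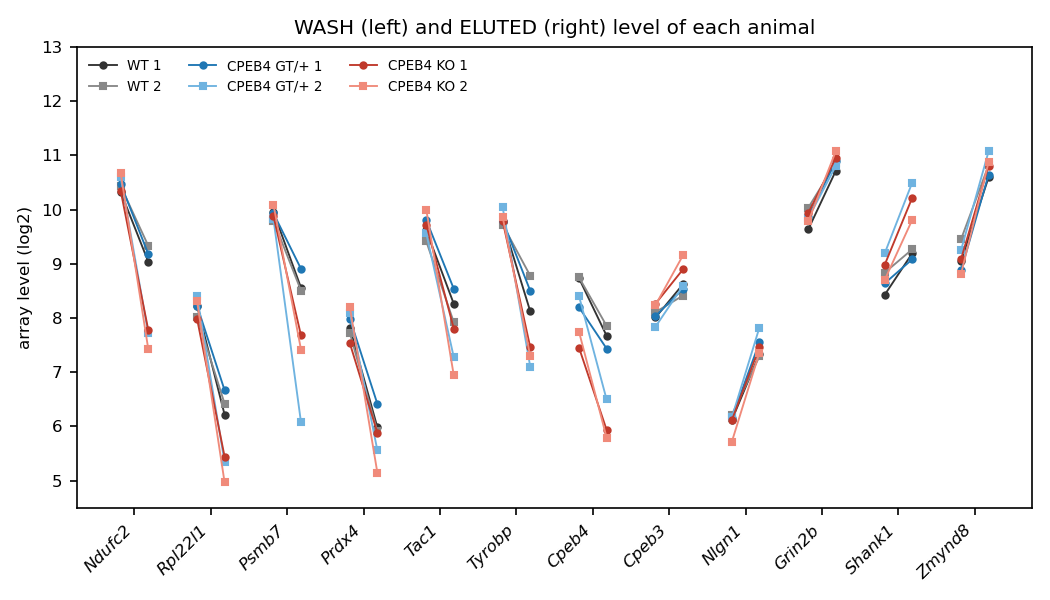
Lines join the WASH level (left end) and the ELUTED level (right end) of each of 6 animals for 12 genes, on the log2 scale. The WASH levels of Ndufc2 span 10.33 to 10.67 and its ELUTED levels 7.44 to 9.34, while Zmynd8 rises in all animals to between 10.60 and 11.08.

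Genes that act on the tail itself did not move as a block. Of 25 poly(A) polymerases, binding proteins and their partners 13 were lower and 7 higher (median -0.24, or -0.07 without the lowest 50% of genes). Papolg, a nuclear poly(A) polymerase, measured 6.70, 6.97 and 7.20 in WASH and 5.33, 5.45 and 5.72 in ELUTED (-1.53, SE 0.10, adjusted p = 1.86e-05), with 4 ELUTED arrays below background. Its relative Papola was called higher at its brightest probe set (0.45), with further probe sets at -0.50, -0.03 and 0.76. The tail-binding protein Zc3h14 was at -1.01 and Paip2, which competes for the poly(A)-binding protein, at -0.32. Pabpc1, the main cytoplasmic poly(A)-binding protein, was at 0.50. Of 15 deadenylases and cofactors 8 were lower and 3 higher (median -0.29, or -0.13 without the lowest 50% of genes). The cofactor Tob1 was at -0.89 and Tob2 at 0.75 (0.13 over the mean of its probe sets, adjusted p = 0.0751), and the catalytic Cnot7 was at -0.36.

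The CPEB family itself split. Cpeb3, whose product acts at synapses, measured 7.84, 8.07 and 8.26 in WASH and 8.41, 8.61 and 9.16 in ELUTED. It was higher in ELUTED in every animal (1.02, SE 0.10, adjusted p = 7.25e-05). Cpeb4, altered in 4 of the 6 animals, measured 7.45, 8.30 and 8.75 in WASH and 5.79, 6.97 and 7.86 in ELUTED, so that the ranges of the fractions overlapped. Within each animal Cpeb4 was lower in ELUTED (-1.16, SE 0.13, adjusted p = 0.000115). In WT animals its level-adjusted ratio was -0.88 and -0.74, in CPEB4 GT/+ -0.59 and -1.67, and in CPEB4 KO -1.36 and -1.70. Cpeb1, the founding member, was at -0.61 with 1 WT animal at 0.05, and Cpeb2 at -0.56. A further probe set of Cpeb4 was at -0.17, and those of Cpeb3 were at -0.42 and 0.59, whereas those of Cpeb2 were at -0.64 and -0.73.

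Immediate early and clock genes held members in both directions. Of 26 immediate early genes, which neurons switch on with activity, 10 were higher (38.5%) and 9 lower (34.6%), near the 35.8% and 34% of all genes (median 0.10). All 3 Nr4a receptors were higher, with Nr4a3 at 1.25, Nr4a2 at 1.00 and Nr4a1 at 0.38, and Dusp6, a phosphatase of the ERK kinases, was lowest at -1.41, with WASH at 8.56, 8.90 and 9.10 and ELUTED at 6.27, 7.08 and 7.86. A further probe set of Nr4a3 was at -0.06. Egr1, the most abundant, was at 0.15 (adjusted p = 0.0697). Of 20 clock genes 10 were higher and 5 lower (median 0.17), whereas the plain ratio called 7 higher and 9 lower. The activator Arntl was at 1.53, and the repressor Cry1, below background on every ELUTED array, was at least 1.74-fold lower there. The further probe set of Arntl was at -0.55.

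Neuropeptide precursors were mostly lower, with 13 of 23 lower and 5 higher (median -0.22). Crh measured 8.78, 9.02 and 9.49 in WASH and 6.30, 6.99 and 7.49 in ELUTED, and Grp was at -1.53 with 3 ELUTED arrays below background. The WASH and ELUTED ranges of Crh did not overlap.

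Noncoding RNAs split by kind. The small nucleolar RNA hosts, spliced RNAs with little coding content, had 4 of 5 lower and none higher (median -1.19): Snhg8 measured 11.22, 11.36 and 11.53 in WASH and 8.18, 9.70 and 10.40 in ELUTED (-1.56, SE 0.16), and Gas5 was at -1.24. Of the 12 other noncoding RNAs 7 were higher and 1 lower (median 0.49). Kcnq1ot1 measured 8.48, 8.54 and 8.91 in WASH and 9.83, 10.22 and 10.43 in ELUTED, with further probe sets at 0.45 to 2.13, and Malat1 (0.86) and Meg3 (0.58) were higher. Among genes named only by clone, with symbols ending in Rik, 325 of 583 were higher and 110 lower (median 0.24), and their median INPUT level was 6.54.

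Replication-dependent histone mRNAs end in a stem-loop in place of a poly(A) tail and gave a view of what the column lets through. H3c1 had an INPUT level of 12.26 but measured 8.82, 9.02 and 9.17 in WASH and 8.14, 8.45 and 9.16 in ELUTED, and H4c8 fell from an INPUT level of 10.16 to 5.85, 6.10 and 6.22 in WASH and 5.24, 5.55 and 5.93 in ELUTED. Both were thus far below INPUT in both fractions, and between fractions neither was called (adjusted p = 0.0979 and 0.265). Of 8 kept histone genes of this kind 4 were lower and 2 higher (median -0.61, or -0.28 without the lowest 50% of genes). H2bc4 was different: it measured 9.21, 9.45 and 9.66 in WASH, no lower than its INPUT level of 9.19, and 6.08, 7.51 and 8.22 in ELUTED (-1.65, SE 0.16, adjusted p = 6.23e-05). Of 9 polyadenylated histone variants 5 were lower and 1 higher (median -0.34), with H2az1 at -1.11. Because H3c1 and H4c8 lay so far below INPUT, their neighbours by INPUT level were not their neighbours on the fraction arrays. With the mean of WASH and ELUTED as the measure of level, H3c1 was at 0.02 and H4c8 at -0.59 (adjusted p = 0.00622). For H4c8, 3 ELUTED arrays were below background, so its size is a bound, with ELUTED at least 1.28-fold lower than WASH.

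Markers of cell types were compared as well. In bulk tissue, fewer cells of a type and less RNA per cell cannot be told apart, and the ratio compares fractions of the same RNA. Medians of cortical excitatory (0.08), striatal (0.09), interneuron (-0.01) and astrocyte (-0.03) markers lay near that of all genes, but once the lowest 50% of genes were removed the striatal median was 0.34 and the cortical 0.16. Oligodendrocyte markers had 8 of 24 lower (33.3%, near the 34% of all genes) and 1 higher (median -0.12), and microglia markers 12 of 20 lower and 2 higher (median -0.32).

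The microglial difference was largest in genes of complement and Fc signalling, where 6 of 6 were lower (median -0.89). Tyrobp, an adaptor of microglial receptors, measured 9.72, 9.79 and 10.04 in WASH and 7.11, 7.80 and 8.78 in ELUTED (-1.56, SE 0.16, adjusted p = 7.31e-05). C1qa was at -1.10 and the abundant protease Ctss at -0.53. Neuronal lists held both directions. In striatal neurons, Rgs9 stood at 2.03 and the peptide gene Tac1 at -1.49, with Tac1 at 9.41, 9.67 and 9.999 in WASH and 6.94, 7.86 and 8.54 in ELUTED; its further probe set was at 0.22. Among interneuron markers Pvalb was at -1.07 and Vip, a peptide gene, at -0.90. Slc1a2, the glutamate transporter of astrocytes, was at 0.62 and Gjb6, a gap junction protein, at -0.87. Of 23 endothelial and mural genes 11 were lower and 8 higher (median -0.16), with Slco1a4 at -0.97 and Bsg at -0.55.

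The 6 animals ordered genes alike but differed in how widely the ratios spread. Across genes, which are not independent replicates, the level-adjusted ratio of each animal correlated with the mean of the other 5 at r = 0.918 to 0.948. The standard deviation over genes was 0.46 and 0.39 in WT, 0.40 and 0.73 in CPEB4 GT/+ and 0.57 and 0.72 in CPEB4 KO. The widest spreads were those of CPEB4 GT/+ 2 and CPEB4 KO 2. The median of complex I was -0.69 and -0.60 in WT, -0.58 and -1.19 in CPEB4 GT/+ and -1.03 and -1.71 in CPEB4 KO. Over cytosolic ribosomal proteins it ran from -0.42 in WT 2 to -1.48 in CPEB4 KO 2.

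**Figure D5:**
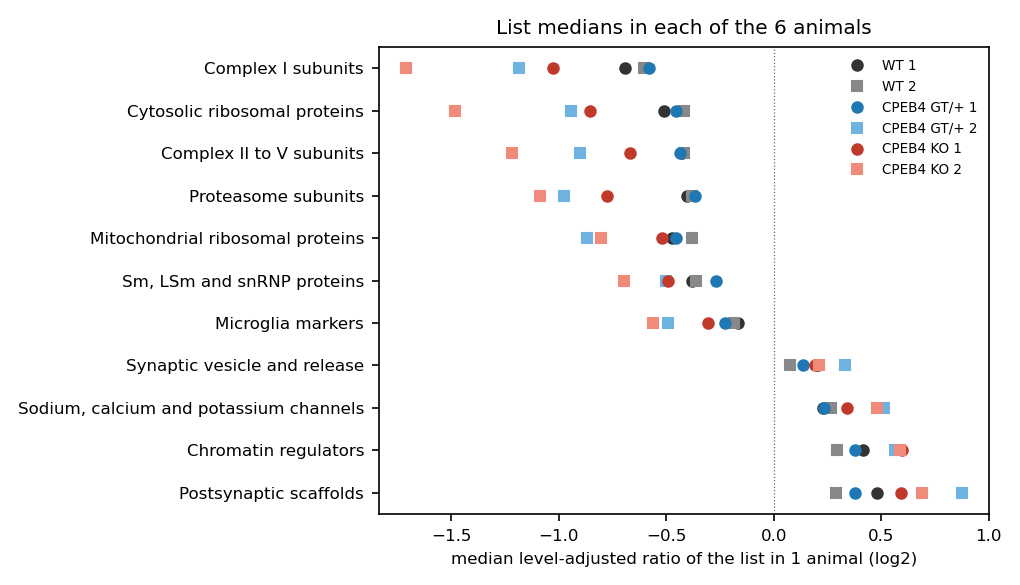
Each point is the median level-adjusted ratio (log2) of a gene list in 1 animal, for 11 lists. All 6 animals lie on the same side of 0 for each list shown; CPEB4 KO 2 and CPEB4 GT/+ 2 lie furthest from 0 in most, with complex I at -1.71 and -1.19.

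The same 2 animals had the lowest ELUTED levels of the lower genes. Over the 533 genes at most -1, their median ELUTED levels were 6.38 and 6.39, against 6.60 to 7.18 in the other 4 animals, while median WASH levels ran from 8.05 to 8.38. These genes were chosen by the mean ratio over the same animals, in which the animals with the widest ratios weigh most. Low ELUTED levels in these 2 animals are therefore partly built in by the choice. No array had a labelled batch, and what set this spread was not tested. With 1 mean fitted to all animals in place of genotype means, 9170 genes were called by the level-adjusted ratio, and with the same model without both animals 8441, of which 4312 were higher and 4129 lower.

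Whether the level-adjusted ratio differed between the genotypes was tested with limma's moderated F test over the 3 genotype means. No gene was called after Benjamini-Hochberg adjustment (0% of 12822), and 525 genes had an unadjusted p under 0.05. That number was 223 without WT 1, 157 without WT 2, 2845 without CPEB4 GT/+ 1, 1736 without CPEB4 GT/+ 2, 543 without CPEB4 KO 1 and 95 without CPEB4 KO 2, with no gene called in any of these fits. With 2 animals a genotype and 3 residual degrees of freedom, this does not show that the genotypes were alike.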

How the data were processed

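Total RNA (INPUT) and the WASH and ELUTED poly(U) fractions of 6 animals were read on 18 arrays after amplification and biotin labelling. Values were used on the log2 scale as deposited, which came from RMA (per the submitters' processing notes); the version and annotation are not given in the sources used here. The array distributions were not identical, and ratios are relative to the other genes. Probe sets were named through the supplied platform table: of 45141, 28898 had 1 symbol, 551 several and 15692 none (104 controls included), and 17097 genes were each represented by their brightest probe set on average across all 18 arrays. The lowest 25% of genes were left out (filter 5.52, beside a highest nonspecific control mean of 5.61), leaving 12822. RefSeq (GRCm38.p6) supplied start sequences.

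Per animal, log2 ELUTED minus log2 WASH was computed, and a robust loess of it on the gene's mean INPUT level (span 0.3, 4 iterations) was subtracted to give the level-adjusted ratio. Genotype means were fitted in limma 3.58.1 (R 4.3.3) with eBayes, and their average was tested against 0, two-sided, with Benjamini-Hochberg adjustment over all genes and a threshold of 0.05; SE are limma's. The F test compared genotypes. Fractions were paired because the labels give WASH and ELUTED of a genotype the same animal number and describe both as eluates of 1 RNA extract; deviations of WASH and ELUTED from their group means correlated over genes at 0.26 (WT), -0.13 (the GT/+ animals) and 0.10 (CPEB4 KO). On simulated data for the level-adjusted ratio over 12822 genes, 0, 30, 46 and 50 of 50 genes changed by 0.25, 0.5, 1 and 2 were called, and 1 unchanged gene. Only these genes were changed in the simulation, while 69.8% of genes were called in the data. The Benjamini-Hochberg adjustment was thus stricter in the simulation, and its counts do not give the power in the data. Precision was limited by the array number, with 3 residual degrees of freedom.

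The comparison, its 45 gene lists and the naming rule were chosen with earlier results of these data known. The rule names Cpeb1 to Cpeb4, the 10 highest and 10 lowest called genes, extremes in each of 5 groups by INPUT level, up to 2 called and the 2 most abundant members of a list, and genes called oppositely by both ratios; other genes named in the text were chosen after their values were seen, and not every gene the rule gives is printed. The definition of the pyrimidine run was set after the data were seen. Nothing in the sources states litters or batches. Protein lengths were not used here. Alternatives changed the filter, probe set rule, scaling, trend, pairing, variance model and animals.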

Additional observations from a re-analysis of the deposited data

Results flagged for a closer look

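In 6 of 185 sets of 6 animals that were checked, 1 animal lay far from the other 5 in level-adjusted ratio. Such a gap arises by chance in about 1 of 20 sets. CPEB4 KO 2 lay lowest for Gapdh (-0.43, the nearest animal at -0.21), for Paip2 (-0.77, the nearest at -0.31), for Tpi1 (-1.20, the nearest at -0.67) and for the median of the polyadenylated histone variants (-0.45, the nearest at -0.25). CPEB4 GT/+ 2 was the only animal below 0 for Snrpd3, at -0.13 against 0.55 in the nearest. WT 2 lay highest for Cpeb2, at -0.23 with the nearest at -0.53. CPEB4 KO 2 and CPEB4 GT/+ 2 were also the animals with the widest spread of ratios over genes.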

How the results depend on the processing

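Counts of level-adjusted calls stayed within 1.5 times the main 8947 under all 18 alternatives, between 6113 (lowest 50% left out) and 10242 (no filter); leaving out 1 animal gave 7251 to 9544, and, with 1 mean in place of genotype means, 9170 over 6 animals and 8441 without the 2 animals left out after seeing the data. The filter settings also changed how many genes were tested, 17097 with no filter against 12822 in the main analysis. The plain ratio was less settled. Its higher calls (3196) became 6202 with arrays centred on their medians (lower calls 3346) and 175 with arrays aligned on hybridisation controls. They were 1363 with the lowest 50% left out and 4848 with no filter, over those other numbers of genes. In the main analysis 1155 and 871 of the higher calls lay in the 2 groups lowest in INPUT level. With ELUTED over INPUT in its place, 5654 genes were called, 1870 higher and 3784 lower. Leaving out 1 animal gave 7553 to 10255 calls of either direction. Without the pairing by animal (no replicate block), 9665 genes were called by the plain and 8957 by the level-adjusted ratio; it changed no call of a count, and it made Rps2 pass (adjusted p = 0.0338).

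Of the 139 named genes, directions turned for 8. With the mean of all probe sets Aldoa was at 0.12, Cox5b at 0.14, H3c1 at 0.19 and Hnrnpr at -0.07. That setting averages in probe sets below the filter and refits the trend over all genes. With a loess span of 0.75 Aldoa was at 0.045, Hsp90b1 at 0.027 and Tomm20 at 0.027, and with medians of 50 bins Aldoa was at 0.008. With the mean of WASH and ELUTED as the level, H3c1 was at 0.021, Mdh2 at -0.026 and Sdha at -0.04. The mean of all probe sets also made Tomm20 (-0.435) and Sdha (0.483) pass. Leaving out 1 animal moved Tomm20 between -0.064 (CPEB4 KO 2 left out) and 0.031 (CPEB4 KO 1), with 0.028 without CPEB4 GT/+ 1. It moved Hsp90b1 between -0.066 (CPEB4 GT/+ 1) and 0.022 (CPEB4 GT/+ 2), and without both CPEB4 GT/+ 2 and CPEB4 KO 2 Hsp90b1 was at 0. The cause was not tested. Of these, Cox5b and Hnrnpr were called in the main analysis. Of the 45 list medians, 4 turned sign in some alternative (molecular motors, tubulin with actin and neurofilament, interneuron and astrocyte markers), all within 0.11 of 0. Over all 45 lists and 18 alternatives 33 values moved, 12 of them with the lowest 50% left out, the largest moves of these being to 0.61 for GABA-A subunits, 0.51 for genes of other brain regions, -0.28 for replication-dependent histones and 0.34 for striatal markers.

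Signal over background limits genes such as Rnpc3, whose ELUTED values lay below background.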

Other observations

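Transport genes held members in both directions in each family. Of 15 kinesins, motors that mostly carry cargo outward along microtubules, 7 were called higher by the level-adjusted ratio and 3 lower (median 0.18). Of 13 dynein and dynactin subunits, which carry it back, 8 were lower and 2 higher (median -0.29). Over all genes 35.8% were called higher and 34% lower, and both groups are small. Dynll2, a dynein light chain, measured 8.72, 8.86 and 9.05 in WASH (lowest, median and highest of 6 animals) and 9.32, 9.44 and 10.07 in ELUTED, with a level-adjusted ratio of 1.07 (SE 0.14). Dctn6 of dynactin measured 10.79, 10.90 and 11.01 in WASH and 8.70, 9.61 and 10.11 in ELUTED (-1.05, SE 0.10). The actin-binding peptide gene Tmsb4x was at -1.41. Among genes grouped by the start of their symbol, 14 of 23 RNA polymerase subunits (Polr) were lower and 4 higher (median -0.43), and 20 of 39 deubiquitinases (Usp) were lower and 9 higher (median -0.24). Of 26 Tbc genes 13 were higher and 2 lower.

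Some synaptic genes gave very different values at different probe sets. Camk2a, a kinase of excitatory synapses, was at 0.49 at its brightest probe set, with an INPUT level of 12.35, and at 0.56 to 1.94 at its 5 others, the highest at an INPUT level of 7.24. Ncam1, an adhesion protein, was at 0.27 at its brightest and at 0.63 to 2.04 at its 5 others. All were above 0. The positions of these probe sets in their transcripts were not used here.

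The other lists lay close to all genes or were small. Of 34 tubulin, actin and neurofilament genes 10 were higher and 8 lower (median -0.01), and of all 37 molecular motors 13 were higher and 14 lower. Cell markers gave 11 higher and 5 lower of 25 for cortical excitatory neurons, 10 and 6 of 22 for striatal neurons, 8 and 8 of 21 for interneurons, 9 and 9 of 27 for astrocytes, 5 and 2 of 11 for oligodendrocyte precursors and 4 and 5 of 14 for ependyma, choroid plexus and meninges. The plain ratio gave 4 higher and 12 lower for the cortical markers and 6 and 10 for the striatal. It gave 5 and 10 for interneurons and 6 and 14 for astrocytes. Genes of other brain regions and pituitary had 5 of 13 higher and 2 lower. Whole lists that were divided above had 24 of 35 lower and 6 higher (Sm, LSm and snRNP proteins), 15 of 30 lower and 13 higher (SR and hnRNP proteins) and 5 of 17 lower and 7 higher (noncoding RNAs).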
